A study of Mus musculus with 12 samples.

Results

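The genes described here are 9 heat shock proteins, *Hspa1a*, *Hspa1b*, *Hspa8*, *Hsp90aa1*, *Hsph1*, *Dnajb1*, *Hspb1*, *Hspd1* and *Hspe1*, and the transcription factor *Hsf1*. They were chosen by name, and all 10 are among the 24100 genes of the count table. All 10 also passed edgeR's filter on low counts, which left 14263 genes to test. RNA came from mouse embryonic fibroblasts (MEFs) of 2 lines, MEFline1 and MEFline2, each derived from another mother. Wild-type (WT) MEFs were *Rtf2*+/+ and received Cre, and their RTF2-deficient littermates were *Rtf2*-/lox and received Cre. The Cre recombinase, which deletes the floxed stretch of *Rtf2*, was delivered by the Hit & Run pMMP retrovirus 72 hrs before harvest, so the WT controls carry the virus too. The study describes these MEFs as immortalized with SV40 large T antigen. Each of the 4 groups had 3 libraries, which the study calls technical replicates. The p-values below therefore measure the spread between libraries of a group, and the 2 lines are the only biological replicates.

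Heat shock proteins are chaperones, which bind unfolded proteins and help them fold, refold or be degraded. HSP70 proteins work in cycles of ATP hydrolysis with J-domain co-chaperones and nucleotide exchange factors, HSP90 matures kinases and receptors, and small heat shock proteins hold unfolded clients. Some members are made in every cell and others mostly under stress, when heat shock factor 1, the product of *Hsf1*, binds heat shock elements in their promoters.

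The library totals lay between 39360167 and 44695002 counts, with a median of 42066275.5. No library was a copy of another of its group: pairs differed by more than sampling noise, at a chi-square of 21.7 to 191 for each degree of freedom. Values are given as CPM, the counts of a gene scaled to a common library size, after TMM normalization unless said otherwise. *Rtf2*, the targeted gene, was at 44.9, 44.8 and 47.2 CPM in WT line 1 and at 5.64, 5.44 and 6.29 CPM in RTF2-deficient line 1. Line 2 had 57.8, 52.9 and 50.9 CPM in WT and 6.66, 6.49 and 6.33 CPM in RTF2-deficient MEFs. All 12 libraries thus matched their genotype labels. Of 10 fibroblast markers, 8 exceeded 1 CPM in every library. *Fn1* was the highest of them over all libraries together, but in WT line 1 replicate 1 *Col1a1* was higher, at 9492 against 8960 CPM. *Dcn*, between 0.392 and 2.10 CPM, and *Lum*, between 0.124 and 1.65 CPM, did not. WT line 2 differed from the other groups in sex-linked genes. *Ddx3y*, on the Y chromosome, was between 91.8 and 107 CPM there and at most 0.195 CPM in the other 9 libraries. *Xist*, which is expressed from the inactive X chromosome, was between 0.0217 and 0.132 CPM there and between 102.9 and 172.8 CPM in the others. Within line 2, sex thus differs between the genotypes and cannot be told apart from genotype, whereas both groups of line 1 had *Xist* and hardly any *Ddx3y*. The comparison over both lines includes line 2 and shares this in part.

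The members covered a wide range of levels. Divided by the length of their exons in kb, the median over the 12 libraries was 1101 CPM per kb for *Hspa8* and 343.5 CPM per kb for *Hsp90aa1*. The mitochondrial pair *Hspd1* and *Hspe1* followed, at 206 and 164 CPM per kb, and then *Hspb1*, at 98.8 CPM per kb. *Hsph1* was at 24.9, *Dnajb1* at 21.3, *Hspa1b* at 16.4, *Hsf1* at 16.1 and *Hspa1a* at 5.72 CPM per kb. The ranges over libraries separated *Hspa8* from *Hsp90aa1*, *Hsp90aa1* from *Hspd1*, *Hspb1* from *Hsph1*, and *Hsf1* from *Hspa1a*. The lowest library of *Hspe1* and the highest of *Hspb1* were both at 117.4 CPM per kb after rounding, so these ranges met without clear overlap. The other neighbours in this order had overlapping ranges. *Hspa8* was thus the most abundant member per length. *Hspa1a* was the least as counted, but the split of reads between it and *Hspa1b* is uncertain, as described below.

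**Figure D1:**
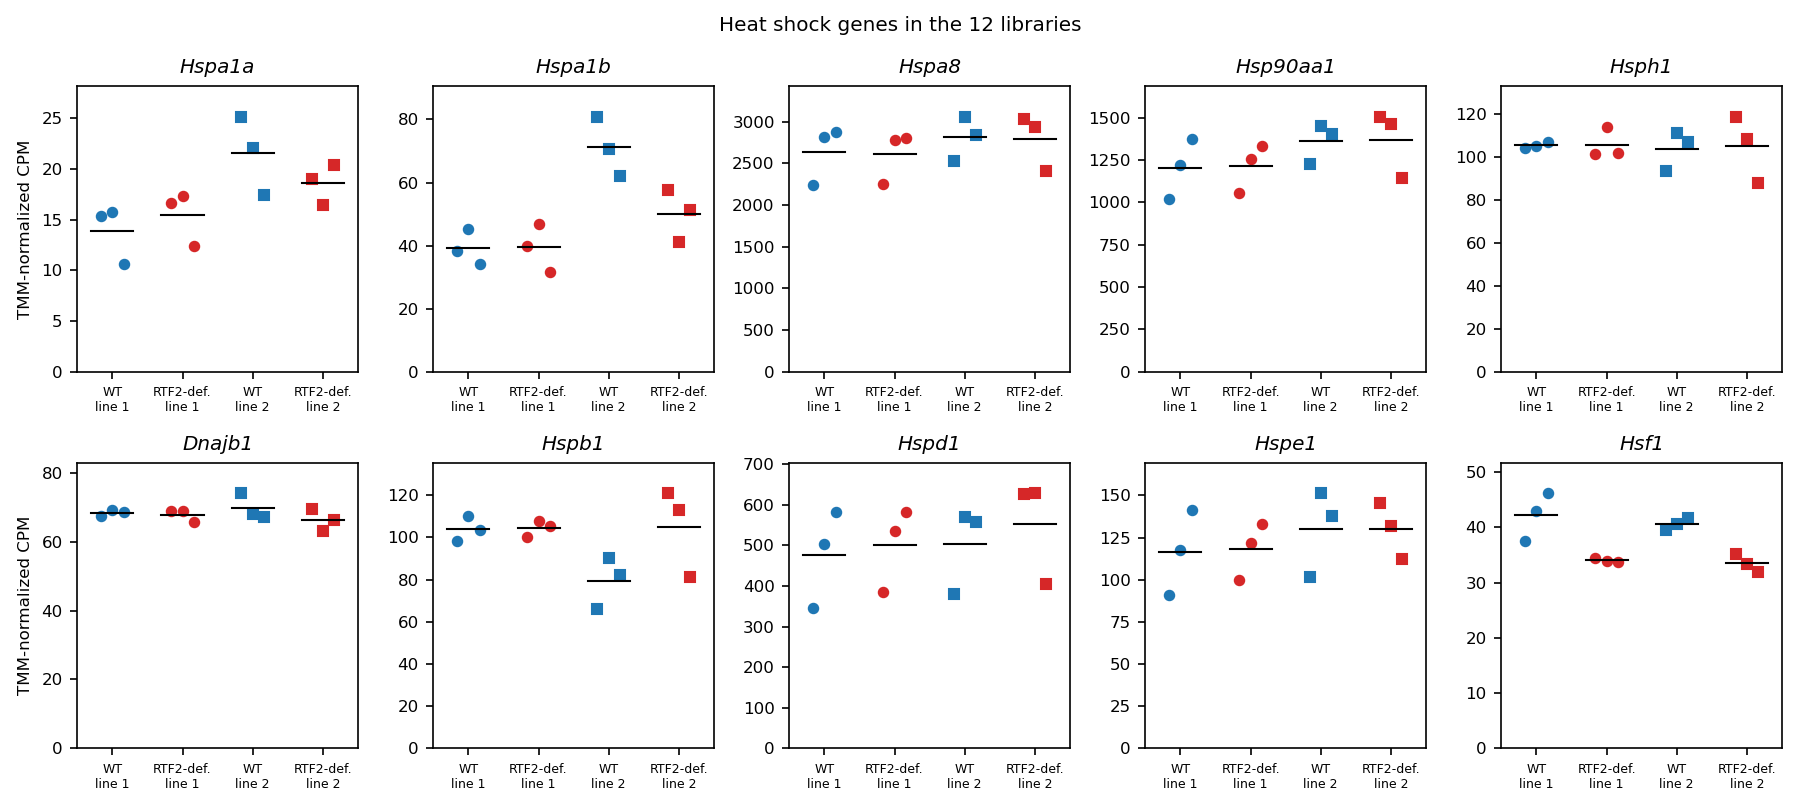
TMM-normalized CPM of the 10 genes in each of the 12 libraries, with the mean of each group as a line; blue is WT, red is RTF2-deficient, circles are line 1 and squares line 2. *Hsf1* was between 37.4 and 46.2 CPM in the WT libraries and between 31.9 and 35.2 CPM in the RTF2-deficient ones, without overlap, and *Hspa1b* was highest in WT line 2.

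The first question was whether the genes differed between RTF2-deficient and WT MEFs over both lines. In edgeR's quasi-likelihood test with terms for line and genotype, 1 of the 10 members passed, at a Benjamini-Hochberg adjusted p under 0.05 over all genes tested. It was *Hsf1*, which was lower in RTF2-deficient MEFs. Among all genes tested, 13.2% passed, 8.18% as lower and 4.98% as higher, so the share of members was near the background. Ignoring sign, log2 fold changes had a median of 0.04 over the members and 0.15 over all genes tested. No member had a log2 fold change beyond 1 in size. The 9 chaperone genes lay between -0.25 for *Hspa1b* and 0.20 for *Hspb1* on the log2 scale. DESeq2 also passed 1 member, beside 18.9% of all genes, and 1 had an unadjusted p under 0.05 in edgeR, beside 28.5%. In such bulk samples, fewer cells of a type and less RNA per cell cannot be told apart.

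*Hsf1* was at 37.4, 42.9 and 46.2 CPM in WT line 1 and at 34.5, 33.8 and 33.7 CPM in RTF2-deficient line 1. Line 2 had 39.5, 40.6 and 41.6 CPM in WT and 35.2, 33.3 and 31.9 CPM in RTF2-deficient MEFs. All 6 RTF2-deficient libraries were below all 6 WT libraries, as they were for 4.41% of all genes tested. The groups of each line taken apart did not overlap either, in that direction, for *Hsf1* and for 6.42% of all genes. *Hsf1* fell by 18.5%, a log2 fold change of -0.29 ± 0.05 (SE, 6 libraries a genotype; adjusted p = 0.00413 by edgeR). The call held in each of 12 fits without 1 library, with adjusted p between 0.00274 and 0.0158. When the 3 libraries of a group were summed, so that only the lines replicated the comparison, no gene of the table passed in edgeR, and *Hsf1* had an adjusted p of 0.167 and an unadjusted p of 0.00954.

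Within line 1, *Hsf1* had a log2 fold change of -0.31 ± 0.08 (SE) and an adjusted p of 0.0665, and 0 of 10 members passed in edgeR. At an unadjusted p under 0.05 the count was 1, and DESeq2 passed 1, in both cases *Hsf1* alone, beside 13.9% and 5.98% of all genes. In line 1, 3.20% of all genes passed, and in 11.3% the RTF2-deficient libraries lay below the WT libraries without overlap. Replicates of the same number deviated together in line 1. With the replicate number as a block in a fit of line 1 alone, the adjusted p of *Hsf1* was 0.00593 by edgeR. In that fit, chosen after seeing the data, 29.1% of all genes passed. Over 10 other settings, not counting fits without 1 library, the range was 0.00593 to 0.130 by edgeR or DESeq2. *Hsf1* passed in 2 of these, DESeq2 and the blocked fit of line 1 alone. Without 1 library at a time, and without the block, *Hsf1* passed in line 1 in 1 of 12 fits. That was the fit without WT line 1 replicate 1, the lowest WT library, with an adjusted p of 0.0368 by edgeR. The highest over these 12 fits was 0.200.

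Within line 2, *Hsf1* was the 1 member that passed in edgeR, with a log2 fold change of -0.28 ± 0.08 (SE) and an adjusted p of 0.0444. Genotype and sex cannot be told apart in this value. Here 12.5% of all genes passed, and in 15.5% the RTF2-deficient libraries lay below the WT libraries without overlap. The call in line 2 alone was fragile: it held in 2 of 12 fits without 1 library, those without WT line 1 replicate 1 or replicate 3. The adjusted p over these fits lay between 0.0313 and 0.157. Over the other settings tried it passed in 5 of 10, with adjusted p between 0.0151 and 0.339 by edgeR or DESeq2. The highest came with line 2 fitted alone with the replicate block, where the numbers do not pair the libraries and 0.550% of all genes passed. The effect did not differ detectably between lines. The interaction, the effect in line 2 minus that in line 1, was 0.03 ± 0.11 (SE) for *Hsf1* on the log2 scale (adjusted p = 0.997). No member had an interaction past the threshold in edgeR, 0 of 10, nor at an unadjusted p under 0.05, nor by DESeq2, beside 1.29%, 8.49% and 2.87% of all genes in that order.

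*Hsf1* lies on chromosome 15, between 76477362 and 76501155 on the plus strand in RefSeq's annotation of GRCm38. Its neighbours were looked at after its values were seen, and were chosen by position alone. *Bop1*, a ribosome biogenesis factor, starts 144 bases away on the other strand in GENCODE's annotation. *Dgat1*, an enzyme of triglyceride synthesis, ends 101 bases beyond the end of *Hsf1*, also on the other strand. Both passed the both-lines test in the same direction as *Hsf1*. *Bop1* was between 54.96 and 81.9 CPM in WT and between 39.2 and 52.8 CPM in RTF2-deficient libraries, a log2 fold change of -0.64 ± 0.11 (SE; adjusted p = 0.00275). *Dgat1* was between 12.2 and 14.3 CPM in WT and between 9.14 and 10.8 CPM in RTF2-deficient libraries, a log2 fold change of -0.38 ± 0.07 (SE; adjusted p = 0.00372). Over both lines, both passed in each of 12 fits without 1 library. In line 1 neither passed in any of these 12 fits. The adjusted p by edgeR was between 0.0554 and 0.238 for *Bop1* and between 0.0536 and 0.209 for *Dgat1*. Over 10 other settings in line 1, *Bop1* passed in 3 and *Dgat1* in 2. In line 2, where sex differs with genotype, *Bop1* passed in 8 of the 12 fits and *Dgat1* in 1. Neither overlaps *Hsf1* in that annotation, and whether the 3 genes share a cause was not tested.

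**Figure D2:**
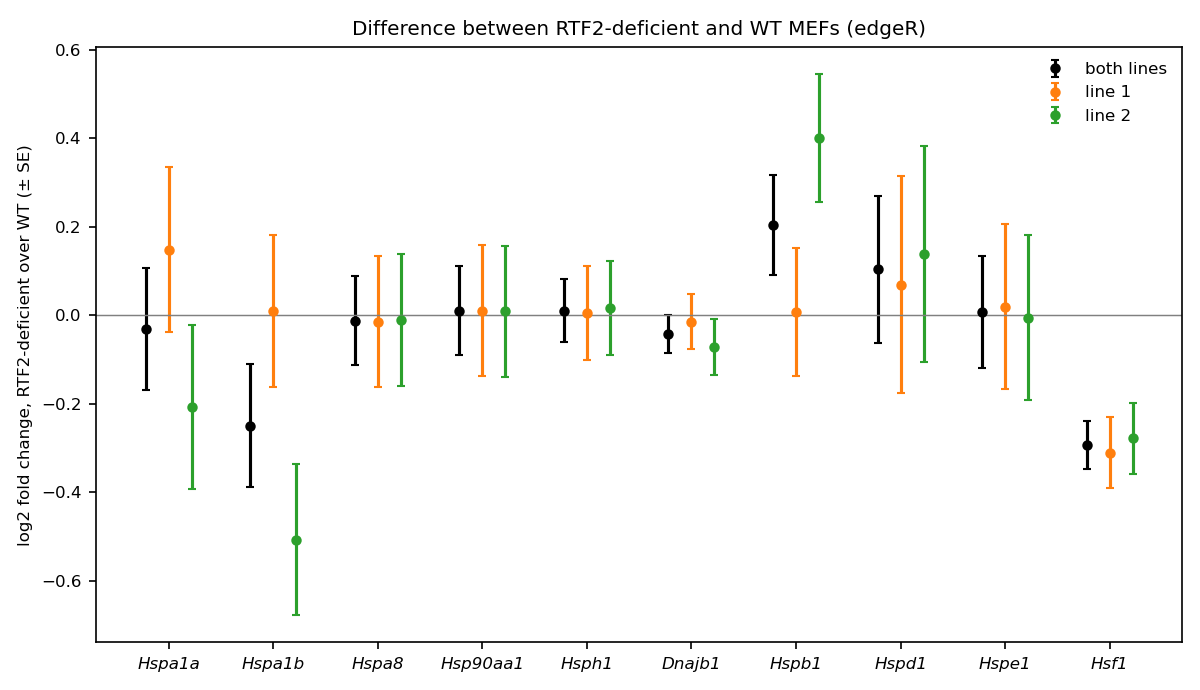
Log2 fold change of RTF2-deficient over WT MEFs for each gene, with its standard error, from edgeR over both lines (black), in line 1 (orange) and in line 2 (green). *Hsf1* was at -0.31 in line 1 and -0.28 in line 2, whereas *Hspa1b* was at 0.01 and -0.51 and *Hspb1* at 0.01 and 0.40.

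*Hspa1a* and *Hspa1b* encode the stress-inducible cytosolic HSP70. They are near-identical copies on the minus strand of chromosome 17, at 34969359 to 34972156 and 34956429 to 34959238, with 10120 bases between them. Of all 75-base windows of the *Hspa1b* transcript, 55.8% occur unchanged in that of *Hspa1a*, and 52.7% the other way round. A read of 75 bases can therefore often not be assigned to 1 copy, and the split between them is uncertain. *Hspa1a* took between 22% and 29.5% of their summed CPM in the 12 libraries.

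*Hspa1b* was at 38.2, 45.2 and 34.1 CPM in WT line 1 and at 39.9, 46.8 and 31.5 CPM in RTF2-deficient line 1. Line 2 had 80.9, 70.5 and 61.9 CPM in WT and 57.7, 41.1 and 51.2 CPM in RTF2-deficient MEFs. The 3 libraries of WT line 2 were thus above all 9 others, an order whose share over all genes was not counted. The groups of line 2 did not overlap, as for 15.5% of all genes tested in that direction. *Hspa1a* followed a similar order, at 25.2, 22.03 and 17.5 CPM in WT line 2 and between 10.7 and 20.4 CPM in the other libraries, with overlap.

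WT line 2 was compared with WT line 1 to show how far lines of 1 genotype differ. Of the 10 members, 2 passed, both higher in line 2, against 14.0% of all genes tested. *Hspa1b* differed by 0.86 ± 0.17 (SE) on the log2 scale (adjusted p = 0.00698 by edgeR) and passed in each fit without 1 library. *Hspa1a* differed by 0.63 ± 0.19 (SE; adjusted p = 0.0468). It kept the call only without RTF2-deficient line 1 replicate 3 or WT line 2 replicate 3, and the highest adjusted p, 0.172, came without WT line 2 replicate 1. Its call was also lost without a filter (adjusted p = 0.0577) and with a minimum of 1 CPM in 6 libraries (adjusted p = 0.0505). For both genes the WT groups did not overlap, with line 2 above line 1, as for 15.1% of all genes tested. Their summed counts gave 0.80 ± 0.17 (SE; adjusted p = 0.00936 by edgeR). The sum shows that the pair differed, and the separate values of the copies remain uncertain. WT line 2 also had more RNA of interferon-stimulated genes and was the group with Y-linked expression. Summed markers of epithelial cells were also higher in WT line 2, between 6.75 and 9.53 CPM, against 2.06 to 2.36 CPM in WT line 1. The sum of 4 neural markers was lower, between 18.0 and 28.9 CPM, against 49.2 to 56.2 CPM, mostly through *Tubb3*. *Tubb3* was between 8.25 and 19.2 CPM in WT line 2 and between 46.3 and 53.3 CPM in WT line 1. *Sox10*, at most 0.145 CPM, was lower too. *Sox2* went the other way, between 8.465 and 10.9 CPM in WT line 2 against 1.68 to 2.79 CPM in WT line 1. So did *Elavl3*, at most 0.586 CPM. Sums for endothelial cells, leukocytes and skeletal muscle overlapped between the WT lines. The sum of the 10 fibroblast markers was lower in WT line 2, between 19140 and 21310 CPM, against 22890 to 29990 CPM in WT line 1. Of these markers, *Pdgfra* went the other way, between 17.2 and 21.7 CPM in WT line 2 against 3.49 to 14.35 CPM, and so did *Lum*. Line, sex, interferon-stimulated RNA and these markers cannot be told apart in this comparison. Without the library highest in interferon-stimulated genes in each group of line 2, *Hspa1b* differed by 0.75 (adjusted p = 0.0348) and *Hspa1a* by 0.49 (adjusted p = 0.164).

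Among RTF2-deficient MEFs no member passed between the lines, 0 of 10 in edgeR, 0 at an unadjusted p under 0.05 and 0 by DESeq2, beside 1.94%, 13.4% and 4.87% of all genes in that order. *Hspa1b* differed by 0.34 ± 0.17 (SE) there. Between genotypes in line 2, which also differ in sex, *Hspa1b* had a log2 fold change of -0.51 ± 0.17 (SE) and an adjusted p of 0.0787 by edgeR. DESeq2 gave 0.0369 for it and so passed 2 members in line 2, *Hsf1* and *Hspa1b*, a share near the 18.1% of all genes that it passed there. The summed copies had a log2 fold change of -0.43 ± 0.17 (SE; adjusted p = 0.122). In line 1 the log2 fold change of *Hspa1b* was 0.01 ± 0.17 (SE), and the interaction was -0.52 ± 0.24 (SE; adjusted p = 0.614), so a difference between lines was not shown.

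*Hspa8* encodes the constitutive cytosolic HSP70. It was at 2236, 2815 and 2878 CPM in WT line 1 and at 2257, 2784 and 2807 CPM in RTF2-deficient line 1. In line 2 it was at 2535, 3062 and 2841 CPM in WT and at 3035, 2936 and 2405 CPM in RTF2-deficient MEFs. The groups overlapped in both lines, and the log2 fold change over both lines was -0.01 ± 0.10 (SE; adjusted p = 0.952). *Hsp90aa1*, the inducible cytosolic HSP90, ranged from 1019 to 1373 CPM in WT line 1 and from 1054 to 1330 CPM in RTF2-deficient line 1. In line 2 it ranged from 1227 to 1453 CPM in WT and from 1141 to 1506 CPM in RTF2-deficient MEFs, and its log2 fold change over both lines was 0.01 ± 0.10 (SE). For both of these abundant chaperones the genotypes overlapped in each line, and the standard deviation within a group reached 14.7% of the mean.

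*Dnajb1*, a J-domain protein that hands clients to HSP70, stayed between 63.1 and 74.1 CPM in all 12 libraries, and the highest library had 1.17 times the lowest. *Hsph1*, an HSP110 protein that exchanges the nucleotide of HSP70, lay between 88.1 and 119 CPM, and its highest library had 1.35 times the lowest, against 1.37 for *Hspa8*. Their log2 fold changes over both lines were -0.04 ± 0.04 and 0.01 ± 0.07 (SE), neither past the threshold.

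*Hspb1*, the small heat shock protein HSP27 (HSP25 in mice), was at 98.1, 110 and 103 CPM in WT line 1 and at 100.4, 108 and 105 CPM in RTF2-deficient line 1. The libraries of line 2 had 66.1, 90.3 and 82.3 CPM in WT and 121, 113 and 81.1 CPM in RTF2-deficient MEFs. Line 1 showed hardly any spread, while in line 2, where sex differs with genotype, the groups overlapped through RTF2-deficient replicate 3. The log2 fold change was 0.01 ± 0.14 (SE) in line 1 and 0.40 ± 0.14 (SE; adjusted p = 0.0978) in line 2, with an interaction of 0.39 ± 0.20 (SE; adjusted p = 0.687). Without RTF2-deficient line 2 replicate 3, the value in line 2 was 0.57 and passed (adjusted p = 0.0113 by edgeR), and in the other 11 fits without 1 library it did not pass. Without the library highest in interferon-stimulated genes in each group of line 2, it was 0.45 (adjusted p = 0.0099 by edgeR). WT line 2 lay below WT line 1 without overlap for *Hspb1*, as for 15.0% of all genes, and the difference of -0.39 ± 0.14 (SE) did not pass (adjusted p = 0.106). It passed without RTF2-deficient line 2 replicate 3, at an adjusted p of 0.0309, and at -0.28 without the libraries highest in interferon-stimulated genes of line 2 (adjusted p = 0.0482).

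*Hspd1* and *Hspe1* encode HSP60 and HSP10, which together form the folding chamber of the mitochondrial matrix. They are transcribed in opposite directions on chromosome 1, *Hspd1* at 55077833 to 55088243 on the minus strand and *Hspe1* at 55088148 to 55091317 on the plus strand. Their annotated ends overlap by 96 bases, and whether the counting used strand is not given in the sources used here, so reads in the overlap cannot be told apart. GENCODE also names 5 pseudogenes of *Hspd1* and 6 of *Hspe1*, so the assignment of their reads is uncertain.

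*Hspd1* was at 346, 504 and 581 CPM in WT line 1 and at 385, 534 and 582 CPM in RTF2-deficient line 1. In line 2 it was at 381, 569 and 556 CPM in WT and at 625, 629 and 404 CPM in RTF2-deficient MEFs. In each group 1 library was far below the other 2, and genotypes overlapped. *Hspe1* was at 90.9, 118 and 141 CPM in WT line 1 and at 100.03, 122 and 133 CPM in RTF2-deficient line 1. In line 2 it was at 102, 151 and 138 CPM in WT and at 145, 132 and 112 CPM in RTF2-deficient MEFs. The low libraries were the same for both genes. Their log2 fold changes over both lines, 0.10 ± 0.17 and 0.01 ± 0.13 (SE), were smaller than their errors.

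Several chaperones shared the place of their lowest library. *Hspa8*, *Hsp90aa1*, *Hsph1*, *Hspb1*, *Hspd1* and *Hspe1* had their lowest library in the same place in each group, replicate 1 of WT line 1, of RTF2-deficient line 1 and of WT line 2, and replicate 3 of RTF2-deficient line 2. For *Hsph1* this is hardly a difference in line 1, where these libraries deviated by -0.02 and -0.06 on the log2 scale from the group means. *Hspd1* deviated most in the 4 libraries, by -0.43, -0.36, -0.38 and -0.42 on the log2 scale from its group means. Each of the 4 libraries was the lowest of its group for between 36.6% and 39% of all genes tested. For the 72 other chaperone and heat-inducible genes tested, described below, the counts were 52, 43, 52 and 47. All 8 subunits of TRiC, the cytosolic chaperonin that folds actin and tubulin, were lowest in these 4 libraries too. The share of all genes that were lowest in all 4 libraries at once was not counted.

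The same 4 libraries had the most RNA of interferon-stimulated genes in their groups. Summed over 15 such genes, with all 15 tested, the level was 430.5, 80.8 and 119 CPM in WT line 1 and 163, 77.7 and 82.4 CPM in RTF2-deficient line 1. In line 2 it was 7264, 728 and 2109 CPM in WT and 155, 315 and 2785 CPM in RTF2-deficient MEFs. *Bst2* was the most abundant of the 15 genes over all libraries together, but not in each of them. In WT line 2 replicate 1, *Ifit3* was at 1024 and *Bst2* at 780 CPM. The part of interferon-stimulated RNA in the levels of the chaperones was not tested. Between genotypes over both lines 0 of the 15 passed in edgeR, 0 at an unadjusted p under 0.05 and 0 by DESeq2. Yet all 15 were lower in RTF2-deficient MEFs in that comparison, with log2 fold changes between -2.38 and -0.68 and a median of -1.51, against a median of 0.00194 over all genes tested. In line 1 their log2 fold changes lay between -2.53 and 0.39. Between the WT lines 7 of the 15 passed in edgeR, all higher in line 2, and 15 had an unadjusted p under 0.05 and 15 passed by DESeq2, beside 28.1% and 19.3% of all genes. Between the RTF2-deficient lines 0 passed in edgeR, 13 had an unadjusted p under 0.05 and 10 passed by DESeq2, beside 13.4% and 4.87% of all genes, and the median log2 difference was 3.98, higher in line 2.

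**Figure D3:**
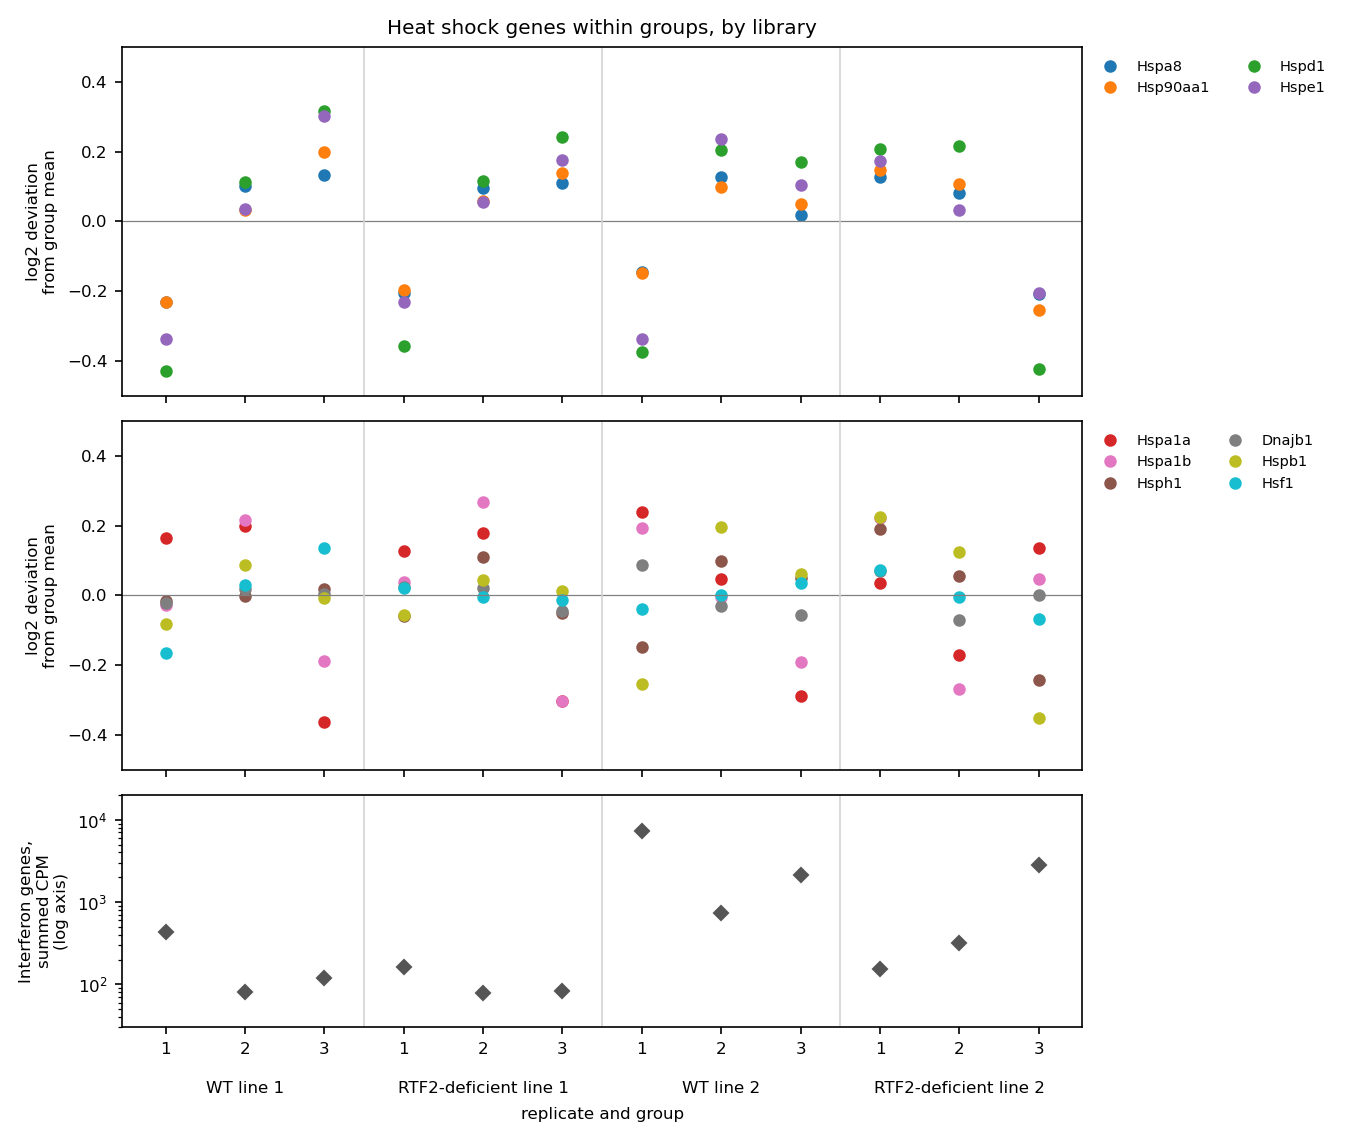
Deviation of log2 CPM from the group mean in each library for *Hspa8*, *Hsp90aa1*, *Hspd1* and *Hspe1* (top), for the other 6 genes (middle), and the summed CPM of 15 interferon-stimulated genes on a log axis (bottom). The top genes were below their group mean in 1 library of each group, the library with the highest interferon sum, such as 7264 CPM in WT line 2 replicate 1.

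*Hsf1* was lowest in 3 of these 4 libraries and *Dnajb1* in 1. *Hspa1a* and *Hspa1b* were lowest in none of them. They were lowest in replicate 3 of both line 1 groups and of WT line 2, and in replicate 2 of RTF2-deficient line 2. As a description over the 12 libraries, which share groups and lines, Pearson's r of log2 CPM was 0.954 for *Hspa8* with *Hsp90aa1* and Spearman's rho was 0.930. For *Hspd1* with *Hspe1* r was 0.937 and rho 0.818, and for *Hspa1a* with *Hspa1b* r was 0.896 and rho 0.937. *Hspa1b* and *Hspa8* had an r of 0.183 and a rho of 0.266. Outside the members, the genes whose levels followed *Hspa8* most closely over the 12 libraries were *Dnaja1* (r = 0.996), *Mapkapk2* (r = 0.971) and *Cfap298* (r = 0.970). *Dnaja1* encodes a J-domain partner of HSP70. For *Hspd1* they were *Ncl* (r = 0.984), *Set* (r = 0.982) and *Heatr3* (r = 0.981), and for *Hspa1b* *Pigs* (r = 0.944), *Cdkl2* (r = 0.936) and *Ctsb* (r = 0.934). For *Hsf1* they were *Irak1* (r = 0.954), *Armt1* (r = 0.946) and *Mllt1* (r = 0.944).

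RefSeq's promoter windows for GRCm38.p6, 250 bases before to 50 after a transcript start, were found for 7 of the 10 members, and *Hspa8*, *Hsp90aa1* and *Hsf1* had none. Stretches are printed for *Hspa1a* and *Hspa1b*, and for *Hspe1*, whose levels followed those of a partner, and for *Hspb1* and *Hsph1*, which were compared with them. Heat shock elements are inverted repeats of the unit GAA. Pairs of units were searched as GAANNTTC and TTCNNGAA, each of which reads the same on both strands. Of 32851 windows, 7.86% held the first, 8.52% the second and 15.1% either. A run of 3 units, in which the pairs overlap by 3 bases, was in 0.603%. Such a match is a description of letters and not a measured binding site.

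*Hspa1a* and *Hspa1b* each held 1 match, GAAGATTC, which starts 104 bases upstream. The 250 upstream bases of the copies differ at 3 positions. They are chr17:34972157-34972406 for *Hspa1a* and chr17:34959239-34959488 for *Hspa1b*, on the minus strand, written 5′ to 3′ with the match in capitals:
Hspa1a: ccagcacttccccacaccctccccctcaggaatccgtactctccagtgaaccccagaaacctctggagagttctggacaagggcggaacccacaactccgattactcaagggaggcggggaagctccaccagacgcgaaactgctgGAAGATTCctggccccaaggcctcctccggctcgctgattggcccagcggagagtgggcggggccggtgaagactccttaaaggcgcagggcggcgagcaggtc
Hspa1b: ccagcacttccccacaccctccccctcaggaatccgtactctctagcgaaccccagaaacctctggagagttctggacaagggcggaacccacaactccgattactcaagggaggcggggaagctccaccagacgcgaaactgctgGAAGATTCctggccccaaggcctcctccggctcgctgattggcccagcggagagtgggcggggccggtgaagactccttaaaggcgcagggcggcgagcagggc
Over the whole window of 300 bases, 296 letters were the same.

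*Hspd1* and *Hspe1* share 1 run of matches, in which TTCNNGAA, GAANNTTC and TTCNNGAA overlap. It starts 89 bases upstream of *Hspe1* and 144 bases upstream of a start of *Hspd1*, and it lies downstream of the other annotated start of *Hspd1*. On the strand of *Hspe1* it is in chr1:55088053-55088082, with the matches in capitals:
Hspe1: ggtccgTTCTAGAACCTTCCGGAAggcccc
*Hspb1* held matches 117 and 97 bases upstream. The nearer is in chr5:135887811-135887840 on the plus strand:
Hspb1: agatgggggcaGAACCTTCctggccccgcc
*Hsph1* held TTCTCGAA in chr5:149636351-149636380 on the minus strand, 33 or 54 bases upstream of its annotated starts, and a run of 3 units after its start:
Hsph1: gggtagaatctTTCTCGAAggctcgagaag
Neither window of *Dnajb1* held a match. Of 59 other listed chaperone genes with a window, 15 held either pair of units.

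**Figure D4:**
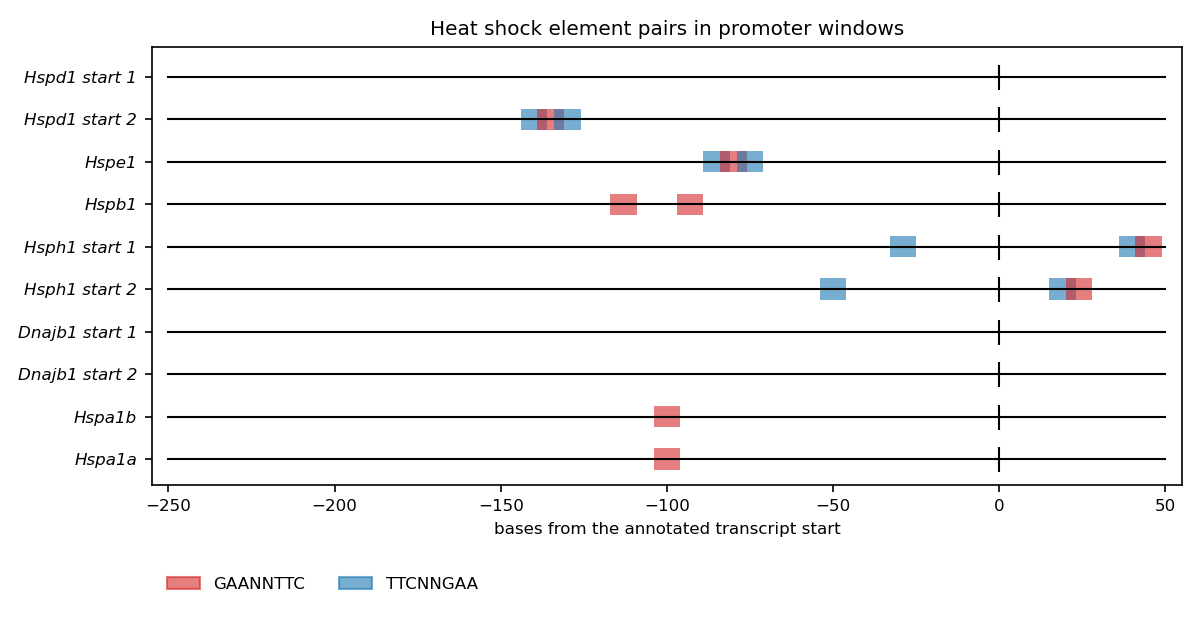
Matches to GAANNTTC (red) and TTCNNGAA (blue) in the promoter windows of 7 genes, in bases from each annotated transcript start, drawn as boxes, with a tick at the start; genes with more than 1 annotated start have a line for each. *Hspe1*, *Hsph1* and a start of *Hspd1* hold overlapping matches, *Hspa1a* and *Hspa1b* 1 match each at the same distance, and *Dnajb1* none.

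Beyond the members, 74 other chaperone, co-chaperone and heat-inducible genes were listed by role, and 72 passed the filter on low counts. Between genotypes over both lines, 4 were higher and 5 lower in RTF2-deficient MEFs, a share near the 13.2% of all genes that passed. The higher genes included *Unc45a*, a co-chaperone that helps HSP90 fold myosin, with a log2 fold change of 0.45 ± 0.05 (SE; adjusted p = 0.000112). *Unc45a* was the one gene of these lists that passed in both lines without a replicate block, at 0.52 in line 1 and 0.38 in line 2. It was between 50.9 and 58.3 CPM in WT and between 67.6 and 85.1 CPM in RTF2-deficient libraries, without overlap. The share of all genes without overlap in this direction was not counted. *Hspa1l*, an HSP70 gene next to *Hspa1a* on chromosome 17, was at 0.50 ± 0.13 (SE; adjusted p = 0.0260), at levels between 1.81 and 3.85 CPM. Its call was lost without WT line 2 replicate 3 (adjusted p = 0.0517 by edgeR), and also without replicate 2 of RTF2-deficient line 1 (adjusted p = 0.0624) or replicate 1 of RTF2-deficient line 2 (adjusted p = 0.0665). The other higher genes were *Dnajb12* and *Hspa13*, at 0.23 and 0.20. The lower genes were *Stub1*, the ubiquitin ligase CHIP that marks HSP70 and HSP90 clients, at -0.36 ± 0.07 (SE; adjusted p = 0.00652), *Hspa12b* at -0.35, *Bag5* at -0.30, *Cdc37* at -0.27 and *Trap1*, the mitochondrial HSP90, at -0.23. The count of 9 rested on single libraries. It was 4 when replicate 2 of WT line 1, replicate 3 of WT line 2 or replicate 1 of RTF2-deficient line 2 was left out. It was 5 when replicate 3 of RTF2-deficient line 1, replicate 2 of WT line 2, or replicate 2 or 3 of RTF2-deficient line 2 was left out.

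By role, beside 13.2% of all genes tested, 3 of 9 other HSP70 and HSP110 genes passed, 1 of 2 other HSP90 genes, 1 of 13 other J-domain genes, 2 of 8 nucleotide exchange factors and HSP70 regulators, and 2 of 13 HSP90 co-chaperones. With lists this small, these counts set no role apart from the background. The same holds for the counts below at an unadjusted p under 0.05, reached by 28.5% of all genes, and by DESeq2, which passed 18.9%. None of 14 TRiC and prefoldin subunits passed in edgeR, 0 at an unadjusted p under 0.05 and 0 by DESeq2, and *Vbp1* was nearest, at 0.12 (adjusted p = 0.221). Of the 18 other heat-inducible genes 0 passed in edgeR, 3 had an unadjusted p under 0.05 and 1 passed by DESeq2. *Hspb8*, the nearest of these, was at -0.11 (adjusted p = 0.0995). Of 5 other small heat shock proteins 0 passed, 3 had an unadjusted p under 0.05 and 2 passed by DESeq2. Of the 3 other heat shock factors and regulators tested, 0 passed, 0 had an unadjusted p under 0.05 and 0 passed by DESeq2. *Hsf2*, a second heat shock factor, was at 0.08 ± 0.05 (SE; adjusted p = 0.309 by edgeR).

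Within line 1, where 3.20% of all genes passed, 2 of the 72 did, *Unc45a* as higher and *Hspa12b* as lower, and 1 without WT line 1 replicate 2. These counts come from the fit without a replicate block. With the block in a fit of line 1 alone, 13 of the 72 were higher and 8 lower, a share near the 29.1% of all genes that passed there. They included *Stub1* at -0.33, *Bag5* at -0.26, *Cdc37* at -0.22, *Trap1* at -0.15, *Dnajb12* at 0.25 and *Hspa1l* at 0.54 on the log2 scale. Such counts came only with the block and the fit of line 1 alone together. With the block over all libraries, line 1 had 2 of the 72 and 357 genes in all past the threshold. Fitted alone without the block, line 1 had 1 and 367. Within line 2, where 12.5% of all genes passed and sex differs with genotype, 6 of the 72 did, *Unc45a* and *Hspa13* as higher and *Hspb6*, *Stub1*, *Trap1* and *Ier5* as lower. *Hspb6*, a small heat shock protein, was at -1.04 ± 0.24 (SE; adjusted p = 0.0170) in line 2, at 77.7, 77.7 and 65.7 CPM in WT and 32.1, 27.6 and 47.6 CPM in RTF2-deficient MEFs. Its call was lost without RTF2-deficient line 2 replicate 1 (adjusted p = 0.0733) or replicate 2 (0.0801). In line 1 it was at -0.24 ± 0.24 (SE), or with the block in line 1 alone at -0.25 ± 0.05 (SE; adjusted p = 0.00488 by edgeR), and the interaction did not pass (adjusted p = 0.511). The count in line 2 was 1 when replicate 2 of RTF2-deficient line 2 was left out, and 2 when its replicate 1 or replicate 3 of WT line 2 was. It was 3 without WT line 2 replicate 2. None of the 72 had an interaction past the threshold in edgeR, 4 had an unadjusted p under 0.05 and 1 passed by DESeq2, beside 8.49% and 2.87% of all genes.

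Between the WT lines, 4 of the 72 were higher and 3 lower in line 2, and 14.0% of all genes passed. *Hspa4l* and *Dnajb5* were higher by 0.63 and 0.37, *Ier5* by 0.34 and *Hspb8* by 0.24. *Cryab*, the small heat shock protein alpha-B crystallin, differed by -0.70, *Serpinh1*, the collagen chaperone HSP47, by -0.47 and *Hspa12b* by -0.43. The count was 3 without WT line 1 replicate 2 and 4 without WT line 1 replicate 1 or WT line 2 replicate 1. Between the RTF2-deficient lines *Cryab* alone of the 72 passed, beside 1.94% of all genes, at -0.80 (adjusted p = 0.0253), and the call was lost without any 1 of the RTF2-deficient line 2 libraries. *Hspa1a* and *Hspa1b* were higher in WT line 2 and *Cryab*, another stress-inducible gene, was lower.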

How the data were processed

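The authors deposited whole-number counts of reads per gene for 12 libraries, by Entrez identifier. The study's methods name Salmon, tximport and DESeq2 on UCSC mm10 gene models, and the submitters' notes name HTSeq and mm10, so the counting tool is not settled. Reads were single-end, of 75 bases. For strand use and poly(A) selection, the sources used here give nothing.

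RefSeq's annotation of GRCm38.p6 gave symbols for 24045 of 24100 identifiers, and GENCODE M21 gave exon lengths. The 14263 genes that filterByExpr kept, given the 4 groups, were scaled by TMM and tested in R 4.3.3 with edgeR 4.0.16 (limma 3.58.1) by its quasi-likelihood test, with terms for line and genotype or with 4 group means for contrasts. Adjusted p-values are Benjamini-Hochberg values over all genes tested, with a threshold of 0.05. Log2 fold changes from edgeR use its default prior count, and log2 CPM for correlations and deviations use a prior count of 2. A standard error is the size of the unshrunken coefficient over the square root of F. DESeq2 1.42.0 was an alternative. The steps were tested on simulated data. Python 3.11.15, pandas 2.3.3 and matplotlib 3.10.9 read promoters and drew figures.

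The numbers of replicates were checked for pairing, from the data alone. Deviations from group means of same-numbered libraries correlated over genes, which are not independent, with r of 0.625, 0.430 and 0.484 in line 1.

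All members are named, with *Rtf2*, and from each list the genes that passed in both lines in the same direction or else the gene with the smallest p. The members and lists were chosen with earlier results of these data known. Some genes stand in more than 1 list. The rule also named *Mx1* of the interferon-stimulated genes, at -2.31 over both lines (adjusted p = 0.195 by edgeR), and *Jun* of 10 immediate early genes, at -0.25 (adjusted p = 0.124). None of those 10 passed in edgeR, 1 had an unadjusted p under 0.05 and 0 passed by DESeq2. Summed markers of other cell types were between 2.06 and 13.1 CPM for epithelial cells (top gene *Krt18*), 10.7 and 21.5 for endothelial cells (*Kdr*), 1.07 and 2.31 for leukocytes (*Csf1r*), 3.10 and 18.3 for skeletal muscle (*Des*) and 18.0 and 56.2 for neural cells (*Tubb3*). The top genes are those over all libraries together. *Tek* was above *Kdr* in replicate 1 of WT line 1 (7.88 against 6.71 CPM) and of RTF2-deficient line 1 (12.46 against 7.62 CPM). *Sox2* was above *Tubb3* in WT line 2 replicate 1 (9.14 against 8.25 CPM).

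Other settings tried were scaling by RLE or by the upper quartile, testing without a filter or with a minimum of 1 CPM in 6 libraries, DESeq2, a replicate block, summed triplicates, each line alone, *Hspa1a* and *Hspa1b* summed, and each library left out. Each line alone with a replicate block, and a fit without the library highest in interferon-stimulated genes of each line 2 group, were chosen after seeing the data. No library or column was left out of the main fits.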

Additional observations from a re-analysis of the deposited data

Results flagged for a closer look

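*Dnajb1* was at 74.1 CPM in WT line 2 replicate 1, apart from the other 5 WT libraries. The nearest of these was at 69.3 CPM, and the gap was 0.677 of the whole range of the 6 WT libraries, above Dixon's critical value. Such a gap occurs by chance in about 5% of sets, and 22 sets were examined.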

How the results depend on the processing

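No value past the threshold changed direction. Of the values for single genes under other settings, 3651 kept their side of the threshold, 174 lost it and 44 gained it. Of the counts of genes, 287 stayed within 1.5 times and 88 did not. The cause of the changes below was not tested, apart from what the settings' own construction shows.

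Without a filter, line 2 had 0 members and 3 other chaperone genes past the threshold and the WT lines differed in 1 member. With 1 CPM in 6 libraries, or with *Hspa1a* and *Hspa1b* summed, the WT lines also differed in 1 member. DESeq2 passed 1 member and 852 genes in line 1, 2 members in line 2, and 1 other chaperone gene and 409 genes in the interaction. It passed 11 other chaperone genes between the WT lines, and 5 with 695 genes in all between the RTF2-deficient lines. With each line alone, line 1 had 1 other chaperone gene, and line 2 had 0 members, 2 other chaperone genes and 969 genes. With triplicates summed, 0 members, 0 other chaperone genes and 0 genes in all passed in edgeR, while 2737 genes had an unadjusted p under 0.05. That fit has 4 samples and 3 terms. Without the libraries highest in interferon-stimulated genes in line 2, a setting chosen after seeing the data, the RTF2-deficient lines differed in 0 other chaperone genes.

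With the replicate number as a block over all libraries, line 1 had 0 members, 2 other chaperone genes and 357 genes past the threshold. Line 2 had 0 members past the threshold there. With each line alone and this block, chosen after seeing the data, line 1 had 1 member, 21 other chaperone genes and 3985 genes, and line 2 had 0, 0 and 77. In line 2 the numbers do not pair the libraries, with r of -0.587, 0.170 and -0.279 for same-numbered libraries. Libraries of other numbers deviated together there. The r was 0.654 for WT replicate 1 with RTF2-deficient replicate 3, and 0.612 for WT replicate 2 with RTF2-deficient replicate 1. For WT replicate 3 with RTF2-deficient replicate 2 it was 0.367. No fit used this pairing, so the tests of line 2 do not take it into account.

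Without 1 library at a time, the members past the threshold ranged from 0 to 1 in line 1, 0 to 1 in line 2 and 1 to 2 between the WT lines. The other chaperone genes ranged from 4 to 8 over both lines, 1 to 2 in line 1, 1 to 7 in line 2, 3 to 10 between the WT lines and 0 to 1 between the RTF2-deficient lines. All genes ranged from 1158 to 1974 over both lines, 192 to 480 in line 1, 813 to 2372 in line 2, 66 to 164 in the interaction, 1260 to 2221 between the WT lines and 119 to 400 between the RTF2-deficient lines.

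The libraries of a group are technical replicates, and 2 lines cannot show how embryos vary. Which tool made the counts is unknown, and reads shared by *Hspa1a* and *Hspa1b*, or by *Hspd1*, *Hspe1* and their pseudogenes, can be split in ways these counts do not show. Depth was similar between groups and all members had counts in every library, so depth does not limit their detection.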
